A study of Mus musculus with 2 samples.

Results

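The genes described here encode the nuclear pore complex, the receptors that carry cargo through it, the Ran GTPase system that gives transport its direction, and the proteins of the nuclear envelope and lamina. They were taken by gene symbol from a table of RNA recovered with the heterochromatin protein HP1 alpha, through name patterns such as Nup, Xpo, Ipo, Kpn, Lmn, Sun and Syne, and not by their ratios, though a gene had to pass the table's limit on counts to be listed. The patterns found 36 of the 3134 listed genes, or 1.15%. By role these were 10 nucleoporins, 10 importins and transportins, 5 exportins, 2 genes of the Ran cycle and mRNA export, and 9 genes of the nuclear envelope. All 36 are annotated as protein-coding.

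The measurements came from enhanced crosslinking and immunoprecipitation (eCLIP), in which ultraviolet light ties RNA to the proteins it touches before a protein is precipitated and its RNA sequenced. The cells were NIH3T3, an established mouse fibroblast line with no genetic change or treatment named in the labels. One library was precipitated with an HP1 alpha antibody, and the other was made with no antibody and is labelled as the input, and the labels describe the extraction of both in the same words. Both come from bulk lysate of 1 cell line, so RNA per cell and the number of cells that hold an RNA cannot be told apart.

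The pore is a ring built of nucleoporins that spans both nuclear membranes. Importins bind cargo in the cytoplasm and release it in the nucleus when Ran-GTP binds them, whereas exportins carry cargo out together with Ran-GTP, and most mRNA leaves through a separate receptor, Nxf1. Beneath the inner membrane lies the lamina, to which heterochromatin is tethered. The lamin B receptor, Lbr, is an inner membrane protein known to bind HP1, so HP1 and the envelope meet at the protein level; the values below are for the RNAs of these genes.

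The HP1 alpha library held 513965 listed counts and the input 830031. Ratios below are the share of a gene in the HP1 alpha counts over its share in the input counts, with an exact 95% interval for counting error. With 1 library per group no difference has a replicate check, and the intervals compare these 2 libraries only. A gene is listed only if its larger count is at least 100. Of 11 fibroblast markers 9 were listed, which together had 6509 counts in the HP1 alpha library, against 13270 in the input, while 0 of 3 immune, 0 of 4 epithelial and 0 of 3 endothelial markers were listed.

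No RNA of these 36 pore, transport and envelope genes stood 2-fold apart between the HP1 alpha library and the input. None of the 36 was 2-fold higher with an interval above 1, and none was 2-fold lower with an interval below 1. Over all listed genes, 2.36% met the rule for higher and 0.83% the rule for lower. At 1.5-fold, 3 of the 36 were lower (Ranbp1, Nxf1 and Ipo8) and 0 were higher, against 12.3% and 7.63% of all listed genes. The ratios ran from 0.523 to 1.28, with a median of 0.812, against a median of 0.865 over all listed genes.

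Most of the 36 lay somewhat below a ratio of 1. The interval lay below 1 for 17 genes (47.2%, against 32.6% of all listed genes) and above 1 for 1 gene, Ranbp17 (2.78%, against 15.4% of all listed genes), and it held 1 for the other 18. A ratio above 1 was seen in 6 genes, or 16.7%, against 30.9% of all listed genes. The counts below 1 follow the scaling. With TMM factors, which move every log2 ratio by 0.20, only 4 of the 36 kept an interval below 1 (Ranbp1, Nxf1, Kpna4 and Tpr), or 11.1%, against 13.7% of all listed genes, and Ranbp17 alone had one above 1, against 23.3% of all listed genes. Together the 36 genes held 0.972% of the listed counts of the HP1 alpha library (0.945 to 0.999, exact binomial) and 1.17% of the input (1.15 to 1.19).

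**Figure D1:**
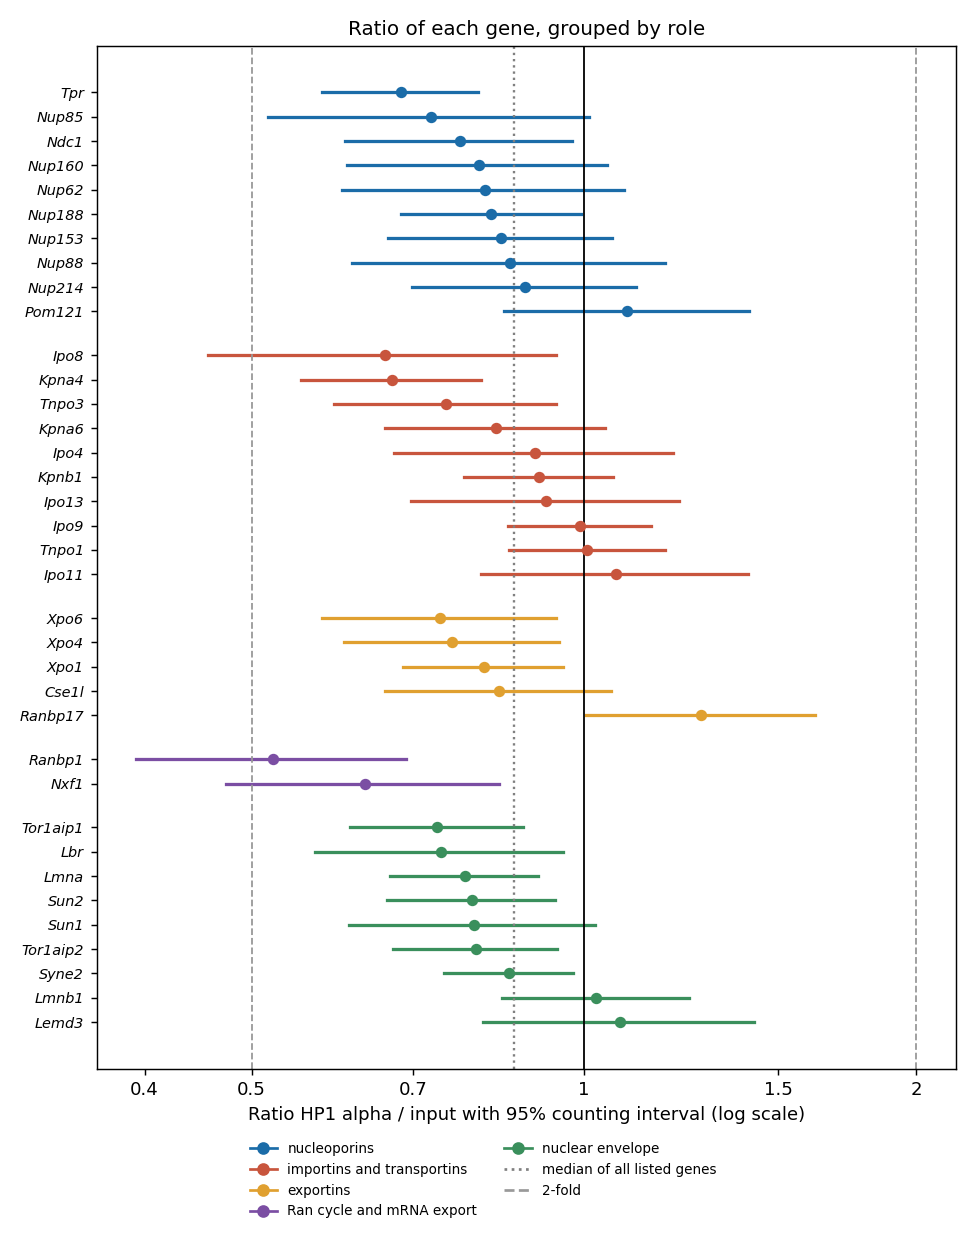
Ratio of HP1 alpha over input for each of the 36 genes (points, log axis) with its 95% counting interval (lines), grouped by role; the dotted line is the median of all listed genes, 0.865, and the dashed lines mark 2-fold. No point reaches a dashed line, and Ranbp1 and Ranbp17 stand at the low and high ends.

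**Figure D2:**
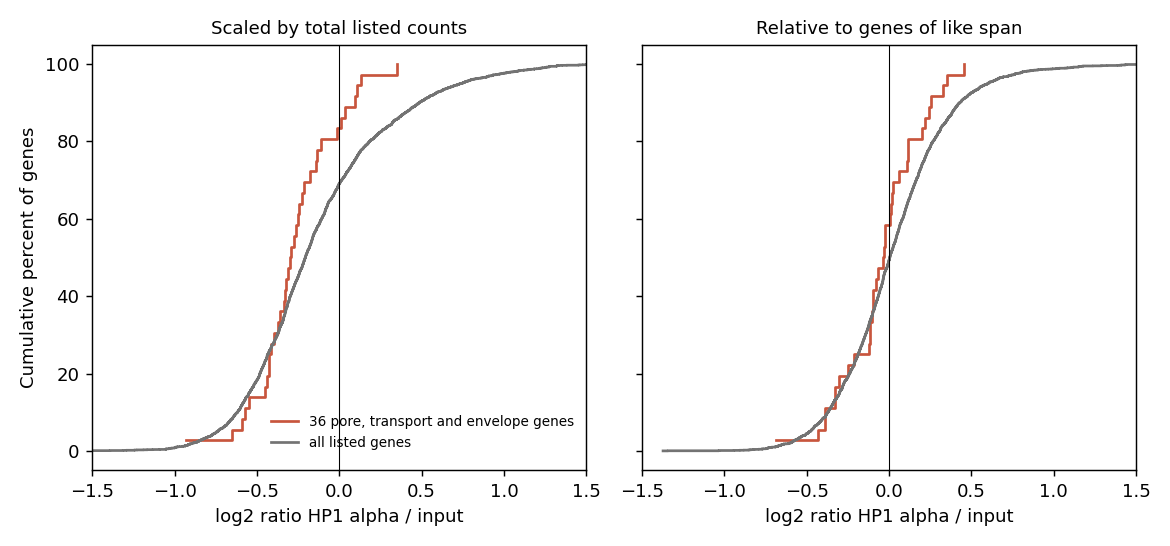
Cumulative percent of genes against the log2 ratio of HP1 alpha over input, for the 36 genes and for all listed genes, scaled by total listed counts (left) and relative to genes of like span (right). The highest ratio is 1.28 among the 36 genes and 3.84 among all 3134; 2-fold higher calls make up 2.36% of all listed genes.

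The 2 genes with the lowest ratios serve the Ran cycle and mRNA export. Ranbp1, which binds Ran-GTP and helps its hydrolysis on the cytoplasmic side, had 69 counts in the HP1 alpha library, against 213 in the input. Its ratio was 0.523 (0.393 to 0.689), the 47th lowest of the 3134 listed genes. Ranbp1 (ENSMUSG00000005732.10) spans 8.72 kb on chromosome 16, from 18239979 to 18248694 in GRCm38.p6, the shortest span of the 36. Nxf1, the receptor that exports bulk mRNA, had 71 counts in the HP1 alpha library, against 181 in the input, which gave a ratio of 0.633 (0.474 to 0.838). Its position is chromosome 19, from 8757103 to 8770910. Ranbp1 and Nxf1 could both be listed only through their input counts. The listing limit allows a ratio above 1 only from 62 counts with HP1 alpha. At 69 and 71 counts it did not fix their ratios below 1, but left little room for ratios above 1. For 22 pairs, chosen with the values known, one gene's ratio was set over another's, which needs no scaling of the libraries. Of the intervals, not adjusted for that number, 6 excluded 1. After each ratio was set over the median of genes of like span, 2 of these 6 still did, Syne2 over Ranbp17 and Ipo8 over Ipo9. For Ipo8 the listing limit fixed a ratio below 1. The ratio of Ranbp1 was 0.826 times that of Nxf1 (0.551 to 1.24), a difference within counting error. Neither Ran itself nor its regulators Rangap1 and Rcc1 were listed.

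Of the 10 nucleoporins, 9 had ratios below 1, against 69.1% of all listed genes. For Nup85 and Nup88 among the 9 the listing limit fixed a ratio below 1, and Nup160 and Nup62 were also listed through the input alone. The interval lay below 1 for Tpr, Ndc1 and Nup188, or 3 of 10, which is near the 32.6% of all listed genes, and with TMM factors for Tpr alone. Tpr, the coiled-coil protein of the nuclear basket, had the most reads of them before any allowance for length, with 215 counts in the HP1 alpha library, against 509 in the input. Its ratio of 0.682 (0.579 to 0.802) was the lowest of the nucleoporins. The other basket gene, Nup153, whose protein carries the FG repeats that bind transport receptors, had 113 counts with HP1 alpha, against 217 in the input, which gave a ratio of 0.841 (0.664 to 1.06). The basket genes did not differ from each other beyond counting error, with Nup153 at 1.23 times Tpr (0.924 to 1.64).

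The genes of the scaffold and channel lay close together. Nup160 and Nup85, of the Y-shaped complex that forms the outer rings, had 84 and 54 counts in the HP1 alpha library, against 169 and 120 in the input, and ratios of 0.803 and 0.727. Nup188, of the inner ring, had 173 counts with HP1 alpha, against 339 in the input, with a ratio of 0.824 (0.682 to 0.993). Nup62, the FG nucleoporin of the central channel, had 72 counts with HP1 alpha, against 143 in the input, which gave a ratio of 0.813 (0.604 to 1.09). On the cytoplasmic side, Nup214 and Nup88, whose proteins form a subcomplex, had 115 and 60 counts with HP1 alpha, against 210 and 113 in the input, and ratios of 0.884 and 0.857. Within each of these 3 pairs the difference was within counting error, with Nup160 at 1.10 times Nup85 (0.716 to 1.71), Nup62 at 0.987 times Nup188 (0.693 to 1.40) and Nup214 at 1.03 times Nup88 (0.689 to 1.55).

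The transmembrane nucleoporins, which anchor the pore in the membrane, held the only nucleoporin above 1. Pom121 had 105 counts in the HP1 alpha library, against 155 in the input, which gave a ratio of 1.09 (0.846 to 1.41). Ndc1 had 107 counts with HP1 alpha, against 224 in the input, which gave a ratio of 0.771 (0.607 to 0.975). The ratio of Pom121 was 1.42 times that of Ndc1, with an interval of 0.996 to 2.02 that just holds 1, and relative to genes of like span 1.49 times (1.05 to 2.12).

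The importins and transportins had the highest median ratio of the role groups, 0.906, and 3 of 10 intervals below 1, near the 32.6% of all listed genes. Importin beta, Kpnb1, which carries most classical cargo, had 257 counts in the HP1 alpha library, against 456 in the input, which gave a ratio of 0.910 (0.778 to 1.06). Its adaptors of the importin alpha family, which read the nuclear localisation signal, were Kpna4 and Kpna6. Kpna4 had 161 counts with HP1 alpha, against 388 in the input, which gave a ratio of 0.670 (0.554 to 0.807), and Kpna6 had 118 with HP1 alpha, against 229 in the input, for a ratio of 0.832 (0.661 to 1.04). The 2 adaptors did not differ beyond counting error, with Kpna4 at 0.805 times Kpna6 (0.598 to 1.09).

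Ipo9, a carrier of histones H2A and H2B, was the importin with the most counts, 289 in the HP1 alpha library, against 471 in the input, and its ratio was 0.991 (0.853 to 1.15). The lowest ratio was that of Ipo8, at 0.661 (0.456 to 0.943), from 45 counts with HP1 alpha, against 110 in the input. At 45 counts in HP1 alpha, Ipo8 could be listed only through its input count, which fixed a ratio below 1. Ipo8 was at 0.667 times Ipo9 (0.447 to 0.984), while for Ipo4, Ipo11 and Ipo13, with ratios of 0.902, 1.07 and 0.924, the intervals of the ratio to Ipo9 held 1. Ipo11 had the highest ratio of the group, 1.07 (0.807 to 1.41), from 88 counts with HP1 alpha, against 133 in the input. Tnpo1, which imports hnRNP proteins, had 247 counts with HP1 alpha, against 396 in the input, which gave a ratio of 1.01 (0.856 to 1.18), and Tnpo3, which imports SR splicing factors, had 111 with HP1 alpha, against 239 in the input, for a ratio of 0.750 (0.593 to 0.943). Tnpo1 was at 1.34 times Tnpo3 (1.01 to 1.79), but relative to genes of like span at 1.29 times (0.968 to 1.71), an interval that holds 1.

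Among the exportins, 4 of 5 lay between 0.741 and 0.837 and Ranbp17 stood above them. Xpo1, the receptor for leucine-rich export signals, had 217 counts in the HP1 alpha library, against 432 in the input, which gave a ratio of 0.811 (0.686 to 0.957). Xpo6, which exports actin with profilin, had 100 counts with HP1 alpha, against 218 in the input, and the ratio was 0.741 (0.579 to 0.943). Xpo4 had 119 counts with HP1 alpha, against 253 in the input, and a ratio of 0.760 (0.606 to 0.948). Cse1l, which returns importin alpha to the cytoplasm, had a ratio of 0.837 (0.661 to 1.06). These 3 each differed from Xpo1 by less than counting error, with the intervals of their ratios to Xpo1 between 0.677 and 1.38.

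Ranbp17, a Ran-binding relative of the exportins, had 128 counts in the HP1 alpha library, against 162 in the input. Its ratio of 1.28 (1.00 to 1.62), whose interval just excludes 1, was the highest of the 36 genes and 1.57 times that of Xpo1 (1.17 to 2.11). Relative to genes of like span it was 0.936 times that of Xpo1 (0.698 to 1.26), so the direction turned. Ranbp17 (ENSMUSG00000040594.14) is also the longest of the 36, with 302 kb on chromosome 11 from 33211794 to 33513784. The 200 listed genes nearest to it in span had a median ratio of 1.39, and 74 of them had lower ratios than Ranbp17. The authors' deposited table, whose header names total mapped reads as the scale, gives folds of 1.31 for Ranbp17 and 0.538 for Ranbp1.

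**Figure D3:**
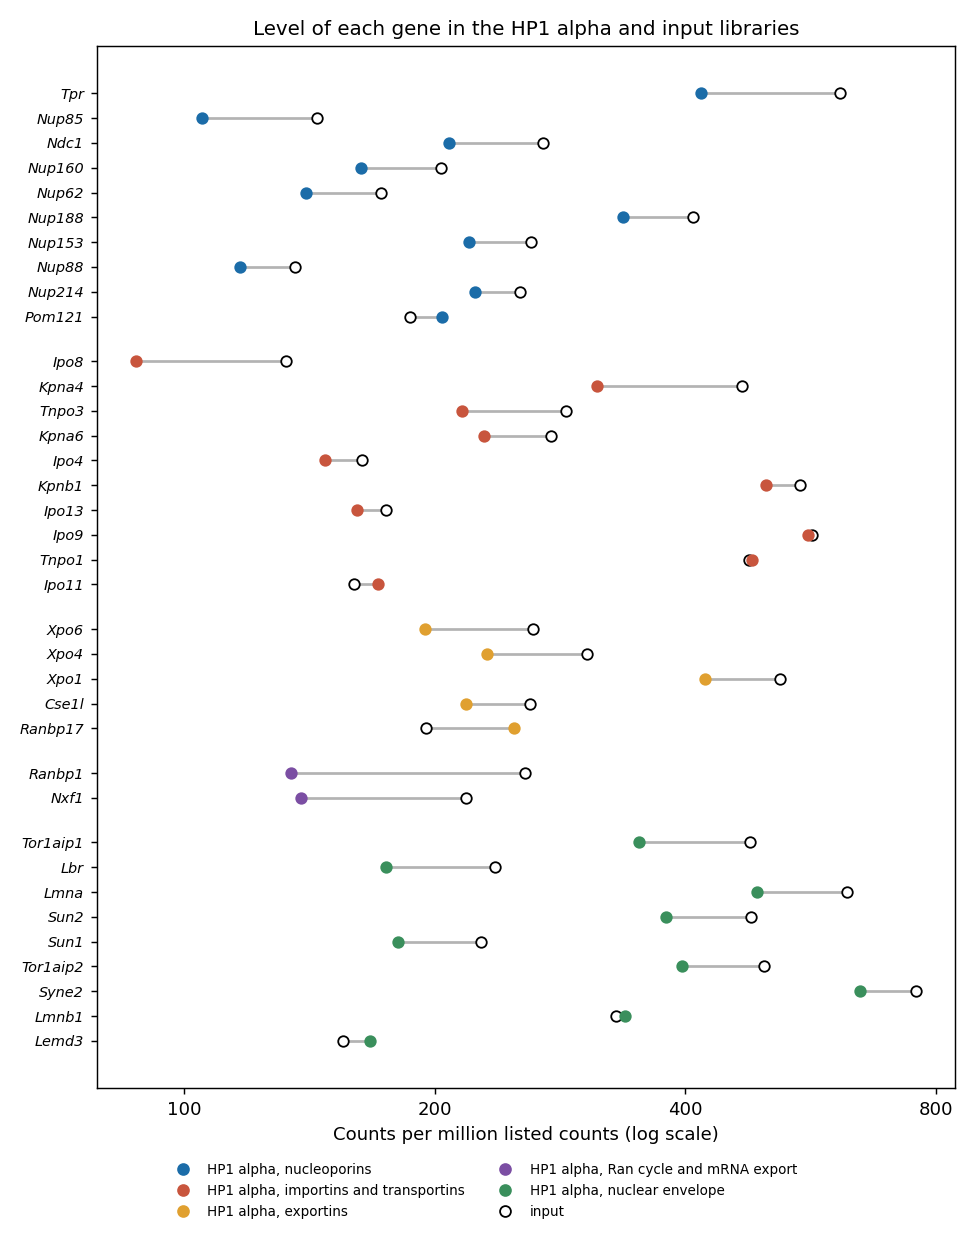
Level of each of the 36 genes with HP1 alpha (filled points, coloured by role) and in the input (open points), in CPM on a log axis, where CPM is the count scaled to a library total of 1000000. The input point lies to the right for 30 genes, and to the left for Pom121, Tnpo1, Ipo11, Ranbp17, Lmnb1 and Lemd3.

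Among the envelope genes, 6 of 9 intervals lay below 1, against 32.6% of all listed genes, but with TMM factors 0 did and relative to genes of like span only that of Syne2. Lmna, which encodes lamins A and C, had 251 counts in the HP1 alpha library, against 520 in the input, which gave a ratio of 0.780 (0.668 to 0.908). Lmnb1, which encodes lamin B1, had 174 counts with HP1 alpha, against 274 in the input, which gave a ratio of 1.03 (0.843 to 1.25). Lmnb1 was at 1.32 times Lmna (1.02 to 1.69), but relative to genes of like span at 1.22 times (0.951 to 1.57), an interval that holds 1. Lbr, whose protein binds both HP1 and B-type lamins, had 90 counts with HP1 alpha, against 196 in the input. The ratio of Lbr was 0.742 (0.571 to 0.957), so its share of listed counts was smaller with HP1 alpha. Its interval held 1 with TMM factors (0.655 to 1.1) and relative to genes of like span (0.716 to 1.2). With under 100 counts in HP1 alpha, Lbr could be listed only through the input. Lemd3, a LEM-domain protein of the inner membrane that binds SMADs, had 86 counts with HP1 alpha, against 129 in the input, and a ratio of 1.08 (0.810 to 1.43). Lemd3 was at 1.45 times Lbr, with an interval of 0.986 to 2.14 that holds 1. Emd and Banf1, other genes of chromatin tethering at the envelope, were not listed.

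The genes of the LINC complex, which couples the lamina to the cytoskeleton, and the torsin activator genes Tor1aip1 and Tor1aip2 had ratios between 0.736 and 0.855. The interval lay below 1 for 4 of these 5 genes, against 32.6% of all listed genes. With TMM factors it did so for 0 of them, and relative to genes of like span for 1, Syne2. Sun1 and Sun2, the inner membrane part of the complex, had 93 and 195 counts in the HP1 alpha library, against 189 and 398 in the input. Their ratios of 0.795 (0.613 to 1.02) and 0.791 (0.663 to 0.941) hardly differed, with Sun1 at 1.00 times Sun2 (0.733 to 1.37). Tor1aip1 and Tor1aip2, which activate torsin ATPases, had 181 and 204 counts with HP1 alpha, against 397 and 413 in the input, and ratios of 0.736 (0.614 to 0.880) and 0.798 (0.671 to 0.946). These neighbours on chromosome 1 share 817 bases of their annotated spans, so their counts may share reads. Of the other members, Nup62 overlapped the listed gene Atf5 and Nup88 overlapped Rabep1, and the same limit holds for them.

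Syne2, which encodes nesprin-2, the giant outer membrane partner of the SUN proteins, had the most counts of the 36 in both libraries, 333 in HP1 alpha and 629 in the input. Its ratio was 0.855 (0.746 to 0.978). Syne2 (ENSMUSG00000063450.10) spans 293 kb on chromosome 12 from 75818318 to 76110928, nearly as much as Ranbp17. The ratio of Syne2 was 0.670 times that of Ranbp17 (0.509 to 0.884). That pair was chosen with the values known, and Ranbp17 had the highest ratio of the 36. Of the 200 listed genes nearest to Syne2 in span, whose median ratio was 1.38, only 4 had lower ratios. Relative to that median Syne2 was at 0.620 (0.541 to 0.709), the 34th lowest of the 3088 genes with a known span.

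The ratio was larger in longer genes over most of the range of spans. The median ratio of all listed genes was 0.737 below 20 kb and 1.39 from 200 to 500 kb. The 36 genes had a median span of 46.8 kb, against 48.2 kb for all listed genes, and 34 of them were between 8.72 and 143 kb. In that range the median ratio was 0.807 for these 34 and 0.839 for all 2380 listed genes. Across the 36 genes, Spearman's rho of ratio and span was 0.18 and Pearson's r of their logarithms was 0.42. Without Syne2 and Ranbp17 these were 0.08 and 0.31, against 0.44 and 0.44 for the 2380 listed genes of that range. These are correlations across genes that share 2 libraries, and genes are not independent replicates.

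Relative to the 200 genes nearest in span, 21 of the 36 were lower and 15 were higher. Of all 3088 genes with a known span, 1524 were lower and 1564 were higher. The median log2 ratio was -0.035 for the 36, against 0.0043 for all genes. The interval lay below 1 for 5 genes (Syne2, Ranbp1, Xpo6, Kpna4 and Tpr), or 13.9%, against 11.8% of all genes, and above 1 for 2 genes (Pom121 and Ipo9), or 5.56%, against 15.3% of all genes. Pom121 was at 1.37 (1.06 to 1.77) and had a higher ratio than 193 of the 200 genes of like span. Xpo6, with a span of 98.8 kb on chromosome 7, was at 0.765 (0.596 to 0.971). Ranbp1 was at 0.743 (0.555 to 0.974) and Nxf1 at 0.863 (0.644 to 1.14). The listed genes nearest to them in span had median ratios of 0.708 and 0.737.

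**Figure D4:**
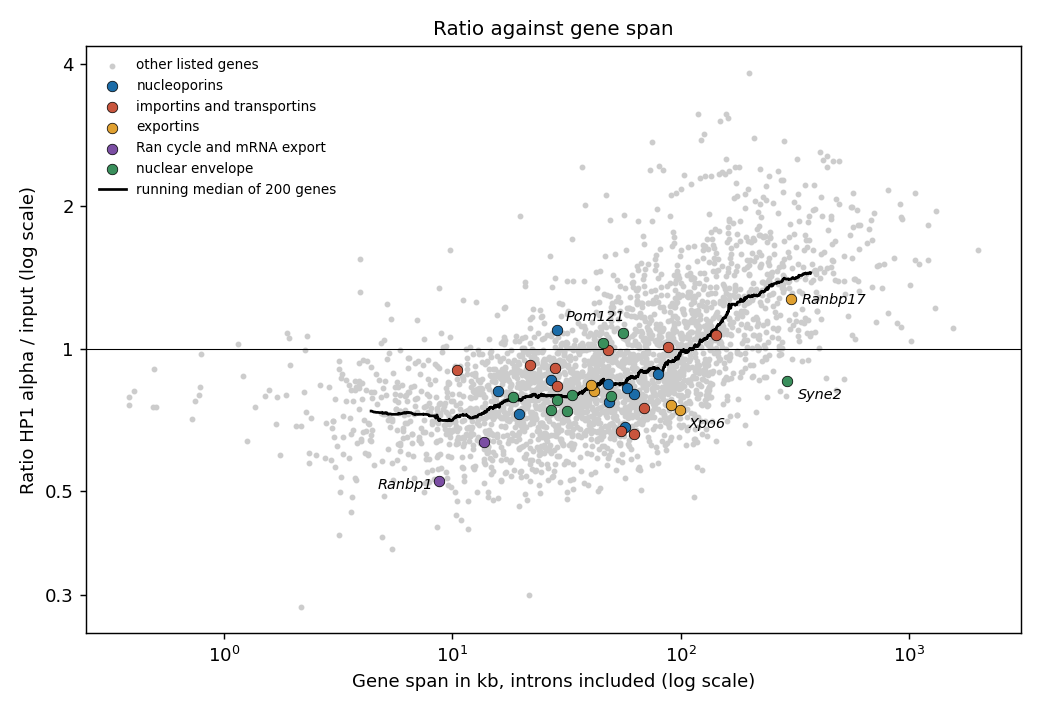
Ratio of HP1 alpha over input against gene span in kb, introns included (both axes log), for all listed genes (grey) and the 36 genes (coloured by role), with the running median of 200 genes. Most of the 36 lie near the running median; Syne2 lies well below it at 293 kb and Pom121 above it at 28.7 kb.

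Levels were compared between genes per kb of span, which takes no account of how reads were assigned to exons or introns. In CPM per kb, the median of the 36 genes was 5.76 with HP1 alpha and 7.15 in the input, and that of all listed genes was 4.53 with HP1 alpha and 5.16 in the input. Sun2 had the highest level in the HP1 alpha library, 20.5 CPM per kb, against 26.0 in the input. Kpnb1 followed with 17.7 and Lmna with 17.0, against 19.5 and 21.8 in the input. Ranbp1 was the 4th highest in HP1 alpha, at 15.4, and the highest in the input, at 29.4. Ranbp17 was the lowest in both libraries, at 0.825 in HP1 alpha and 0.646 in the input.

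The listing limit bears on the low end. In the HP1 alpha library 13 of the 36 genes had fewer than 100 counts, and in the input 0 did, so every member could be listed through its input count. The 13, with Ranbp1, Nxf1 and Lbr among them, could be listed only that way. For Ipo8, Nup85 and Nup88, with 45, 54 and 60 counts in HP1 alpha, this fixed a ratio below 1. Without these 3, 16 of 33 intervals lay below 1, or 48.5%, against 32.6% of the 3131 listed genes left. Only these 3 were taken out, although 507 of all listed genes had a ratio below 1 fixed in this way. The 2 shares are therefore not filtered alike, and the comparison cannot tell how much the limit adds to the low ratios. RefSeq annotates 94 protein-coding genes whose symbols fit the patterns, and 58 of them, with a median span of 36.2 kb, were not listed and are not analysed here. The table holds 10 of 27 annotated nucleoporins, 10 of 18 importins and transportins, 5 of 8 exportins, 2 of 10 genes of the Ran cycle and mRNA export and 9 of 22 envelope genes, and 0 of 9 annotated genes whose symbols fit the patterns but not these roles.

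Other genes of the same machinery were counted from a list of 46 that the name patterns miss. Of these, 15 were listed, 1 was higher by the 2-fold rule (Vrk2) and 0 were lower, and the median ratio was 0.807. The interval lay below 1 for 4 of the 15, or 26.7%, against 32.6% of all listed genes, and the 1 higher gene is 6.67%, against 2.36%. For Chtop, Pcid2, Sec13, Tmem43, Icmt and Ctdnep1 the listing limit fixed a ratio below 1. Chtop and Pcid2 are among the 4 with an interval below 1. Chtop, an mRNA export factor, had the lowest ratio, 0.590 (0.417 to 0.825), from 49 counts with HP1 alpha, against 134 in the input, a count with HP1 alpha so low that the listing limit fixed a ratio below 1. Vrk2, a membrane-bound relative of the kinase that releases Banf1 from chromatin, had 125 counts with HP1 alpha, against 73 in the input, and a ratio of 2.77 (2.06 to 3.74). With an input count under 100 it was listed through HP1 alpha alone, which fixed a ratio above 1.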

How the data were processed

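Per the submitters' processing notes, reads were handled with STAR 2.6.0c and featureCounts on GRCm38; for strand, counted feature, handling of overlaps and duplicate removal the setting is not given in the sources used here. The authors deposited 1 table with whole-number read counts per gene for both libraries and a fold (ratio) that equals the count ratio times 1.6615 (after rounding; 1 constant in every row within a relative tolerance of 1e-06). Its columns are headed MEF, and mock was taken as the library without antibody. There were 0 other sample columns.

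Counts were scaled to the sum of listed counts in their own library. Ratios carry Clopper-Pearson 95% intervals, which cover counting error only, and reads may be PCR copies. Ratios between 2 genes carry exact conditional intervals for an odds ratio, computed for 22 pairs, of which 6 excluded 1. They were chosen with the values known and not adjusted for their number. Log2 ratios used a pseudocount of 0.5. Calls needed 2-fold and an interval excluding 1. No p-value was computed. The calculations were tested on simulated data.

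Spans and positions came from RefSeq GRCm38.p6. All 36 symbols matched, as did 3088 of the 3134 listed genes by symbol or unambiguous synonym. All members could be named; the members, roles, pairs and lists were chosen with earlier results of these data known. Alternatives were TMM factors (edgeR 4.0.16), DESeq2 1.42.0 size factors, the authors' constant, a minimum of 200 counts over both libraries, a pseudocount of 5, a 1.5-fold threshold and the 200 genes nearest in span. Python 3.11.15 and scipy 1.17.1 were used.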

Additional observations from a re-analysis of the deposited data

How the results depend on the processing

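No paired analysis was possible because a single library stands for each group. The 2-fold rule named 0 of the 36 genes in either direction under the TMM, DESeq2 and authors' scalings, the minimum of 200 counts, the pseudocount of 5 and the comparison with genes of similar span; at 1.5-fold 3 were lower. The median log2 ratio of the 36, -0.30 as reported, was -0.0995 with TMM factors, -0.088 with DESeq2 factors and -0.035 relative to genes of similar span. Intervals below 1, 17 as reported, numbered 4 with TMM, 4 with DESeq2 factors and 5 relative to genes of similar span, where 2 lay above 1. Of all listed genes, 32.6% lay below 1 as reported, 13.7% with TMM and 389 of 3134 with DESeq2 factors. Their shares relative to genes of similar span were 11.8% below 1 and 15.3% above. The interval counts under other settings and those that leave out members were added after the values were seen. Without the 4 genes that overlap a listed gene, 15 of 32 lay below 1, against 1021 of the 3130 listed genes left. Over all listed genes, 74 higher became 127 with TMM, 132 with DESeq2 factors, 38 relative to genes of similar span and 239 at 1.5-fold, and 26 lower became 9, 9, 4 and 386 in that order, with 6 when 200 counts were required and 12 when the pseudocount was 5. With TMM or DESeq2 factors 35 of the 36 log2 ratios stayed within their own counting intervals, Syne2 being the exception at -0.028 and -0.016, and 5 changed sign. Relative to genes of similar span 23 stayed within their intervals, 13 moved outside and 13 changed sign, and the ratio of Ranbp17 over Xpo1 turned to 0.936. TMM and DESeq2 factors add 1 constant to every log2 ratio, and the stricter minimum leaves fewer genes. Depth sets the intervals, whose upper bound was 1.6 times the lower at the median and 2.07 times at most among the 36.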
